A study of Mus musculus with 60 samples.

Results

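This report describes the first 12 h of retinoic acid (RA) treatment in control mouse embryonic stem cells (mESCs), as RNA-seq counts of genes and repeat subfamilies. Of the 60 libraries of the series, 6 entered the comparison: the Ctrl libraries taken before RA (T0, 3 libraries) and those taken 12 h after RA was added (T12, 3 libraries), chosen by their labels. Both groups are the same POLE4-dTAG line, made from E14JU mESCs (129/Ola strain), so the controls too carry POLE4, a histone-binding subunit of the leading strand polymerase, fused to a degradation tag. Both groups also received DMSO, the solvent of the degrader dTAG-13, for 24 h in serum with LIF before T0. The T12 cells were then moved to medium with RA and without LIF. RA addition and LIF withdrawal therefore cannot be told apart here, and the T12 cells had also been in culture for longer. The line came from colonies picked after CRISPR editing, so nothing here separates a property of the line from one of mESCs in general. The titles and time labels give the hours used below, although a protocol note shared by the samples lists a different set of hours. Replicates are labelled by number, and the study states biological replicates without saying how the cultures were separated, so the p-values measure the spread between these libraries.

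As background, RA is a diffusible derivative of vitamin A that binds the nuclear receptors RARA, RARB and RARG. Each of these pairs with an RXR partner on DNA, usually at direct repeats of a short hexamer, and turns from repressor to activator when RA is bound. Among the known targets are the genes that clear RA (the CYP26 enzymes), the receptor Rarb itself and the Hox genes, which lie in 4 clusters and specify position along the body axis. LIF acts in the opposite direction on stem cells: through its receptor and STAT3 it maintains the naive network of transcription factors that keeps mESCs from differentiating, and serum with LIF is the classical medium for these cells.

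The 4 promoters below are shown because their genes carry the RA response described next, and because each holds a direct repeat of the RA receptor hexamer (in capitals). They are RefSeq sequences of GRCm38.p6 on the strand of the gene, 5′ to 3′, 250 bases each.
Cyp26a1 (chr19:37697558-37697807, plus strand): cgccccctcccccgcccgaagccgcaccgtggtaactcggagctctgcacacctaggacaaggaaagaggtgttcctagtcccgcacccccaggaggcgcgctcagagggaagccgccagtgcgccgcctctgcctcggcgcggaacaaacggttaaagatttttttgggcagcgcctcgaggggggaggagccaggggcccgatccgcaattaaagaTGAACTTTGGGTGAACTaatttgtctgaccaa
Rarb (chr14:16575477-16575726, minus strand): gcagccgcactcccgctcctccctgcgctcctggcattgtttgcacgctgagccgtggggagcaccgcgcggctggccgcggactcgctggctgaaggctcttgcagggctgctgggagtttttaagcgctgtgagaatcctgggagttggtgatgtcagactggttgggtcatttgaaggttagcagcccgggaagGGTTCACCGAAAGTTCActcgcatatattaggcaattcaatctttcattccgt
Rara (chr11:98964622-98964871, plus strand): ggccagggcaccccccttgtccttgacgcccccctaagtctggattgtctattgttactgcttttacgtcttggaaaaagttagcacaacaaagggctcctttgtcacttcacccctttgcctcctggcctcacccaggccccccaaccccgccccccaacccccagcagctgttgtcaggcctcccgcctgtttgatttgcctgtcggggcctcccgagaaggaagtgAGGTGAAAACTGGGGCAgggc
Stra8 (chr6:34920698-34920947, plus strand): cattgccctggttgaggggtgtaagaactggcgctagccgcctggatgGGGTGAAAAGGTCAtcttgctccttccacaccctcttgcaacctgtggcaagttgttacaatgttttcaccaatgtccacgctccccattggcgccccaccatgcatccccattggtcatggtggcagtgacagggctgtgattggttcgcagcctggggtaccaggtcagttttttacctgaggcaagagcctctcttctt
The search used the hexamer AGGTCA and a degenerate form of it (A or G, then G, then 2 positions of G or T, then C or G, then A), repeated in the same direction with 1, 2 or 5 bases between (DR1, DR2, DR5), on both strands. Every exact match is also a degenerate match, and repeats of different spacing can overlap. All 4 matches shown are degenerate ones. In Cyp26a1 the DR5 lies from 32 to 16 bases before the start, on the opposite strand, in Rarb from 53 to 37 bases before it and in Rara, at an internal start, from 21 to 5 bases before it. In Stra8 a DR2 lies from 202 to 189 bases before the start. Over all 32851 RefSeq promoters of 250 bases before to 50 after the start, 1.95% held a degenerate DR5, 2.06% a DR2 and 2.7% a DR1. A DR5 was in 3.52% of the promoters of genes that rose at T12 (44 of 1250), in 2.43% of those of genes that fell (14 of 575) and in 1.84% of those of genes that were tested and did neither (234 of 12706). For a DR1 these shares were 3.44%, 2.78% and 2.79%, and for a DR2 2.32%, 2.09% and 1.69%. Of 36 promoters of 20 RA receptor and RA metabolism genes 3 held a DR5 (8.33%), 3 a DR1 (8.33%) and none a DR2. Of 24 promoters of 22 Hox genes none held a DR5, 1 held a DR1 and 1 a DR2. These are matches of letters in a short window and no measurement of binding.

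The 6 libraries held between 16873575 and 29980256 counts, over 55487 genes and 1146 repeat subfamilies. On the first principal component, with 73.8% of the variance, the T0 libraries lay between -29.0 and -27.8 and the T12 libraries between 25.7 and 31.2. Ctrl T12 replicate 2 stood apart from the other T12 libraries in its mitochondrial RNA, with 0.689% of its counts on mitochondrial mRNAs against 1.04% and 1.26%. Without it 1975 features passed the test described next, against 1993 with it. Markers of mESCs were high before RA, with Pou5f1 at 848 CPM (counts per 1000000, scaled by TMM factors), Dppa5a at 660.5 CPM and Nanog at 461 CPM. Pole4 was at 52.5 CPM at T0 and 58 CPM at T12 (log2 fold change 0.15, adjusted p = 0.0729). Whether counting used the strand is not given in the sources used here, so genes that overlap another gene, as Hoxa3 to Hoxa6, Hoxb2, Hoxb3, Rarb, Stra6, Stat3 and Cd37 do, may hold reads of their neighbour.

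Of 17673 features tested, 1279 rose (7.24%) and 714 fell (4.04%) between T0 and T12, at an adjusted p below 0.01 and a change above 1.5-fold (11.3% in all, and 20.1% passed the adjusted p at any fold). The 7.24% and 4.04% are the background for every list count below. The features that passed are the differentially expressed (DE) features of edgeR's quasi-likelihood test. The groups did not overlap in any of them, and they did not overlap in 46.7% of all features tested. Changes of more than 2-fold numbered 709 upward and 323 downward, and a log2 fold change beyond 4 was found in 46 risers and 4 fallers. Of the features that rose, 24.2% averaged below 1 CPM at T0, against 2.1% of the features that fell, and 11.6% of all features tested. At 10 CPM or more stood 25.6% of the risers, 59.9% of the fallers and 55.1% of all features. A gene near 0 at T0 can pass the filter on low counts only through its T12 level, so this contrast describes the calls and is no test. In bulk RNA a change in level may be more RNA per cell or more cells of a type, which cannot be told apart.

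Genes that handle RA itself were among the features with the largest rises. Cyp26a1, which oxidises RA and so removes it, stood at 2.95, 3.36 and 3.29 CPM at T0 and 166, 216 and 187 CPM at T12. All 3 T12 libraries were far above all T0 libraries, a 59.1-fold change (log2 fold change 5.89 ± 0.12, SE) with the smallest adjusted p of all features (6.22e-11). The gene lies at chr19:37697798-37701536 (mm10), and its promoter is the first shown above. Cyp26b1, a second RA-degrading enzyme, was close to undetected at T0, with 0.170, 0.285 and 0.152 CPM at T0 and 9.64, 15.3 and 14.3 CPM at T12 (log2 fold change 5.97 ± 0.31, adjusted p = 4.7e-08). The fold changes of the 2 enzymes were of similar size.

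Supply and storage genes rose as well. Stra6, the membrane receptor that takes up retinol, had 0.567, 1.20 and 0.809 CPM at T0 and 28.4, 33.2 and 32.4 CPM at T12, a 36.3-fold change (log2 fold change 5.18 ± 0.17). Dhrs3, a reductase that turns retinal back to retinol, had 0.964, 1.65 and 2.17 CPM at T0 and 32.1, 35.8 and 33.4 CPM at T12 (log2 fold change 4.38 ± 0.17). Lrat, which stores retinol as esters, rose from 0.164 to 2.31 CPM (log2 3.75). Crabp2, which binds RA in the cytoplasm, rose from 8.13 to 21.2 CPM (log2 1.38). Of 19 genes in the list of RA metabolism and transport, 14 were tested, 7 rose and none fell, with a median log2 fold change of 1.05 against 0.01 over all features. The lowest of the 14 was at -0.48. Hence uptake, esterification, reduction and oxidation all had risers, while Cyp26c1, Aldh1a1, Rpe65, Stra6l and Bco1 were too low to be tested.

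Among the receptors, Rarb rose from near 0. It had 0.510, 0.171 and 0.506 CPM at T0 and 10.5, 12.6 and 12.5 CPM at T12, a 29.1-fold change (log2 fold change 4.86 ± 0.23, adjusted p = 2.48e-08). Rara, already well expressed, rose by less, with 84.7, 93.7 and 87.9 CPM at T0 and 141, 164 and 144 CPM at T12 (log2 fold change 0.75 ± 0.068, adjusted p = 5.21e-06). Rarg averaged 182 CPM at T0 and 188 CPM at T12 (adjusted p = 0.473). The partners Rxra (29.2 and 27.4 CPM, adjusted p = 0.455), Rxrb (65 and 66.2 CPM, adjusted p = 0.822) and Rxrg (0.407 and 0.650 CPM, adjusted p = 0.186) did not pass the test. Of the 6 receptors, 2 rose and none fell.

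Stra8, a gene named for its stimulation by RA and later needed for entry into meiosis, had 7.66, 11.6 and 15.6 CPM at T0 and 227, 253 and 273 CPM at T12. The lowest T12 library was far above the highest T0 library, a 21.4-fold change (log2 fold change 4.42 ± 0.16, adjusted p = 4.26e-09). Of 23 genes known as RA-induced, 20 were tested and 10 rose, Stra6 and Stra8 among them. The others included transcription factors and cofactors: the pioneer factor Foxa1 (from 0.569 to 7.25 CPM, log2 3.61), the corepressor genes Zfp703 (from 7.97 to 47.5 CPM, log2 2.57) and Nrip1 (from 19.6 to 115 CPM, log2 2.55), Gata6 (from 2.95 to 13.1 CPM, log2 2.16), Tshz1 (from 1.49 to 6.56 CPM, log2 2.14), Wt1 (from 5.65 to 20.3 CPM, log2 1.84) and Rai1 (from 42.1 to 71.5 CPM, log2 0.76). Nrip1 binds liganded nuclear receptors and represses through them. The only member that fell was the growth factor gene Fgf8 (from 5.09 to 2.94 CPM, log2 -0.78). That call was lost without Ctrl T0 replicate 1 or 3, or without Ctrl T12 replicate 1 or 3 (log2 -0.85 to -0.69), and the number of fallers was 2 without Ctrl T0 replicate 2 or Ctrl T12 replicate 2.

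**Figure D1:**
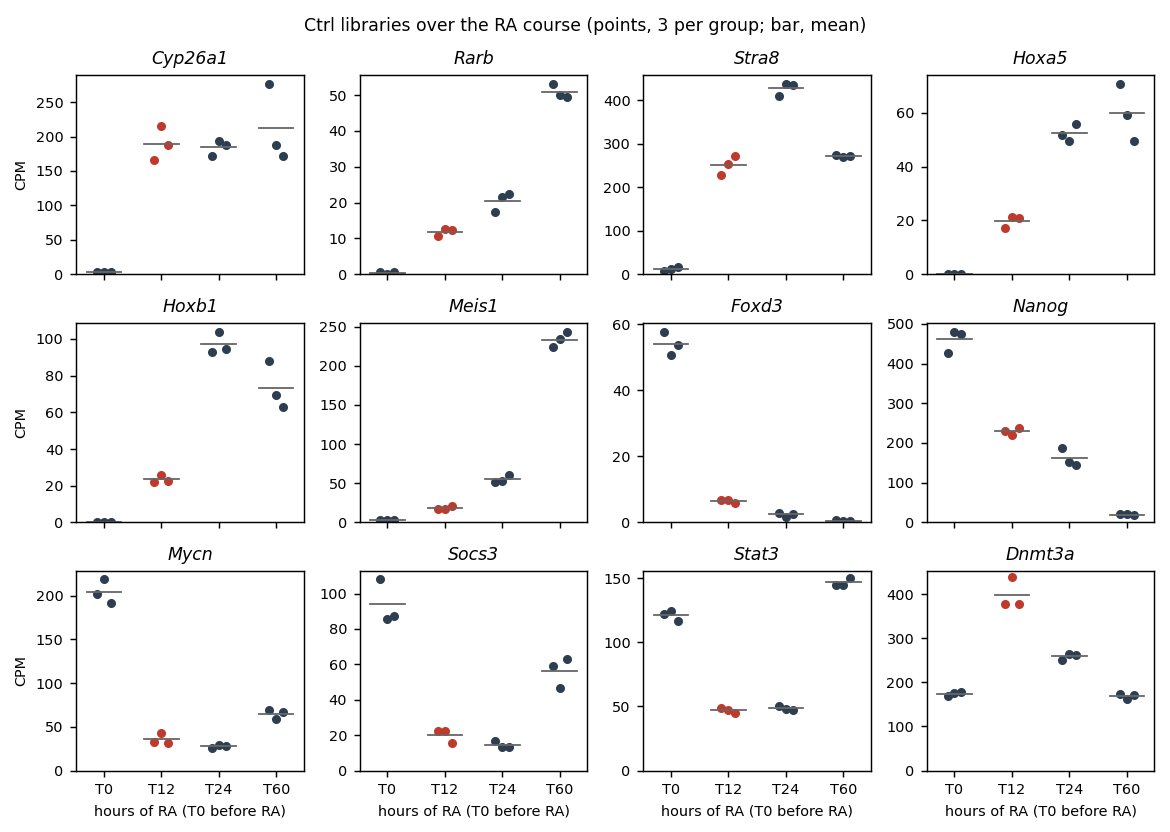
CPM of 12 genes in each Ctrl library at T0, T12, T24 and T60, with T12 in red and a bar at the mean of 3 libraries. Cyp26a1 goes from about 3 CPM to between 166 and 216 CPM by T12, while Foxd3 goes from above 50 CPM to below 7 CPM.

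Hox genes had some of the largest log2 fold changes of all, in the Hoxa and Hoxb clusters. All 8 tested genes of the Hoxa cluster rose and so did all 10 of the Hoxb cluster (background 7.24%), with median log2 fold changes of 5.51 and 5.84. Most of these genes averaged below 1 CPM at T0 and could pass the filter on low counts only through T12, so the counts and medians are a description. At the 3′ end, the end activated first in embryos, Hoxb1 had 0.227, 0.0570 and 0.202 CPM at T0 and 22.2, 25.8 and 22.6 CPM at T12, a 138-fold change (log2 fold change 7.11 ± 0.22, adjusted p = 1.5e-09). Hoxb1 patterns the hindbrain, and all 3 T12 libraries were far above all T0 libraries.

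Many other genes of these clusters also started near 0. Hoxa5 had 0.0567, 0 and 0.202 CPM at T0 and 17.1, 21.1 and 21 CPM at T12 (log2 fold change 7.66 ± 0.30), Hoxb2 averaged 0.0696 CPM at T0 and 16 CPM at T12, and Hoxb4 went from 0.426 to 25 CPM (log2 5.87). Hoxa3 rose from 0.107 to 14 CPM and Hoxa7 from 0.370 to 8.26 CPM. Several others had 3 counts or fewer at T0 over all 3 libraries, so their ratios carry wide 95% counting intervals: 210-fold for Hoxa4 (58.2 to 1740), 124-fold for Hoxb3 (42.5 to 602), 66.9-fold for Hoxb6 (18.5 to 552), 66.2-fold for Hoxa2 (18.3 to 547) and 44.1-fold for Hoxa6 (7.91 to 1740). Hoxb5 had no count at T0 and 6.18, 9.93 and 7.91 CPM at T12, at least 147-fold higher against a floor of 3 counts over the T0 group. These intervals and the floor cover counting error only. The fitted SE of genes with so few T0 counts is narrower than such intervals, as for Hoxa4 (log2 7.48 ± 0.35). It is therefore no measure of their counting error.

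Leaving Hoxb5 aside, the log2 fold changes of paralogues 1 to 6 in these clusters lay between 5.05 and 7.66 and those of paralogues 7 to 13 between 0.96 and 4.47. Hoxb7 rose from 0.126 to 0.996 CPM (log2 2.90), Hoxb8 from 0.124 to 2.74 CPM (log2 4.36) and Hoxb9 from 2.41 to 4.68 CPM (log2 0.96). Hoxa10 (from 0.187 to 2.64 CPM, log2 3.80) and Hoxb13 (from 0.324 to 3.96 CPM, log2 3.56), among the genes farthest 5′, nevertheless rose, and Hoxa9, Hoxa11 and Hoxa13 had too few counts to be tested. Per kb of exon, the T12 levels were 10.5 CPM for Hoxa5, 10.1 for Hoxb1 and 9.76 for Hoxb4, then 4.80 for Hoxa4, 4.58 for Hoxb2 and 2.87 for Hoxb5.

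The other 2 clusters were hardly detected. Of 9 Hoxc genes 2 were tested and Hoxc4 rose (from 0.112 to 0.810 CPM, log2 2.85), and of 9 Hoxd genes 2 were tested and none passed. Hox proteins bind DNA together with MEIS and PBX partners, and several of those genes rose. Meis1 went from 3.02 to 18.3 CPM (log2 fold change 2.60 ± 0.14), Meis2 from 7.33 to 36.7 CPM (log2 2.32) and Pbx2 from 56.5 to 134 CPM (log2 1.25). Meis3 (log2 0.59, adjusted p = 0.019) and Pbx3 (log2 0.54, adjusted p = 0.0116) did not pass. Cdx1, a regulator of Hox genes, had 3.57, 1.88 and 2.78 CPM at T0 and 54.3, 44.4 and 40.7 CPM at T12, all T12 libraries far above T0 (log2 fold change 4.09 ± 0.17). In all, 6 of 12 tested members of this list rose and none fell. Halr1, a long noncoding RNA beside the Hoxa cluster that was chosen after its value was seen, had 8.56, 8.67 and 9.16 CPM at T0 and 58.9, 53.5 and 62 CPM at T12 (log2 2.73).

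Outside these families the protein-coding genes with the largest rises were mostly low ones. Tal2, a transcription factor gene, went from 0.0905 to 3.76 CPM (log2 5.28), the arginase gene Arg1 from 0.166 to 6.35 CPM (log2 5.21), and Mroh2a from 0.107 to 3.86 CPM (log2 5.06). Themis2, a signalling adaptor of immune cells, reached a higher level, from 0.937 to 24.6 CPM (log2 4.70), and Zbtb7c, a zinc finger factor, rose from 2.48 to 23.7 CPM (log2 3.25). The largest falls included Ly6g6e (from 7.53 to 0.424 CPM, log2 -4.16) and Gjb5, a connexin gene of gap junctions (from 22.7 to 3.71 CPM, log2 -2.62). Ddx58, which encodes the RNA sensor RIG-I, fell from 56.4 to 9.46 CPM (log2 -2.55), and Gad1, which makes the transmitter GABA, fell with log2 -2.15.

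Most genes of the naive pluripotency network were lower at T12. Of its 23 genes, all tested, 16 fell (background 4.04%) and 2 rose, with a median log2 fold change of -0.83. Esrrb, an orphan nuclear receptor of this network, had 421, 462 and 450.1 CPM at T0 and 196, 195 and 179.7 CPM at T12 (log2 fold change -1.22 ± 0.059, adjusted p = 2.45e-08). Nr5a2 fell from 84.6 to 30.5 CPM (log2 -1.47), Tcl1 from 35.6 to 14.3 CPM (log2 -1.32), Nr0b1 from 76.4 to 34.1 CPM (log2 -1.16), Klf5 from 289 to 138 CPM (log2 -1.06) and Prdm14 from 16.8 to 7.97 CPM (log2 -1.08). Falls were smaller for Zfp42 (from 479 to 264 CPM, log2 -0.86), Tfcp2l1 (from 395 to 231 CPM, log2 -0.77), Klf4 (from 122 to 76.4 CPM, log2 -0.67) and Klf2 (log2 -0.73). Tbx3, in contrast, stood at 244 and 274 CPM (adjusted p = 0.0251) and Dppa5a at 660.5 and 675 CPM (adjusted p = 0.66). The 2 risers were Pecam1, an adhesion molecule, with 90.8, 106 and 107 CPM at T0 and 216, 225 and 231 CPM at T12 (log2 1.15), and Dppa2, a chromatin factor (from 104 to 174 CPM, log2 0.74).

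The core factors differed in the size of their fall. Foxd3, a forkhead factor needed for ESC self-renewal, had 57.5, 50.7 and 53.6 CPM at T0 and 6.72, 6.72 and 5.92 CPM at T12, 8.31-fold lower at T12 with no overlap (log2 fold change -3.05 ± 0.09, adjusted p = 1.5e-09). Nanog had 427, 479.7 and 475 CPM at T0 and 230.2, 221 and 238 CPM at T12, a fall of about the same log2 size as in Klf5 (log2 -1.0 ± 0.059). The fall of Tdgf1, the Nodal coreceptor gene, was from 319.8 to 133 CPM (log2 -1.26) and that of Sall1 from 183 to 109 CPM (log2 -0.74). Pou5f1, which encodes OCT4, had 870.1, 843 and 831 CPM at T0 and 633, 732 and 597 CPM at T12. All 3 T12 libraries of Pou5f1 lay below T0, with a log2 fold change of -0.37 (adjusted p = 0.00184) that missed the fold threshold, as did Sox2 (315 and 242 CPM, log2 -0.38, adjusted p = 0.000941) and Utf1 (256 and 174 CPM, log2 -0.56, adjusted p = 0.000181). Of 15 core genes 5 fell and none rose, with a median of -0.38.

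In the list of LIF, STAT3 and IL6 family genes 9 of 19 tested fell (47.4%, background 4.04%), 2 rose (10.5%, background 7.24%) and 8 did neither. Socs3, the feedback inhibitor that STAT3 induces, had 108, 85.9 and 87.6 CPM at T0 and 22.5, 22.5 and 15.7 CPM at T12 (log2 fold change -2.20 ± 0.13, adjusted p = 1.21e-07). Stat3 itself had 122, 124 and 117 CPM at T0 and 48.6, 47.3 and 45.2 CPM at T12 (log2 fold change -1.36 ± 0.058). Both receptor chains were lower, Lifr from 171 to 79.8 CPM (log2 -1.09) and Il6st from 128 to 77.9 CPM (log2 -0.72), and so were the targets Bcl3 (from 33.4 to 15.6 CPM) and Socs2 (from 44.3 to 21.8 CPM). The median log2 fold change of the list was -0.53. Of the risers, the kinase gene Pim1, a STAT3 target in many cells, went the other way from Socs3, from 129.5 to 279 CPM (log2 1.11). The second riser, Jak2 (log2 0.59), lost its call when Ctrl T0 replicate 1, 2 or 3 or Ctrl T12 replicate 1 or 3 was left out, and also with DESeq2, with the replicate block and with scaling on genes alone, each of which left 1 riser. Mycn, the Myc family gene that is high in ESCs, had 202, 219 and 192 CPM at T0 and 32.8, 42.7 and 31.2 CPM at T12 (log2 fold change -2.52 ± 0.10, adjusted p = 5.53e-09).

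**Figure D2:**
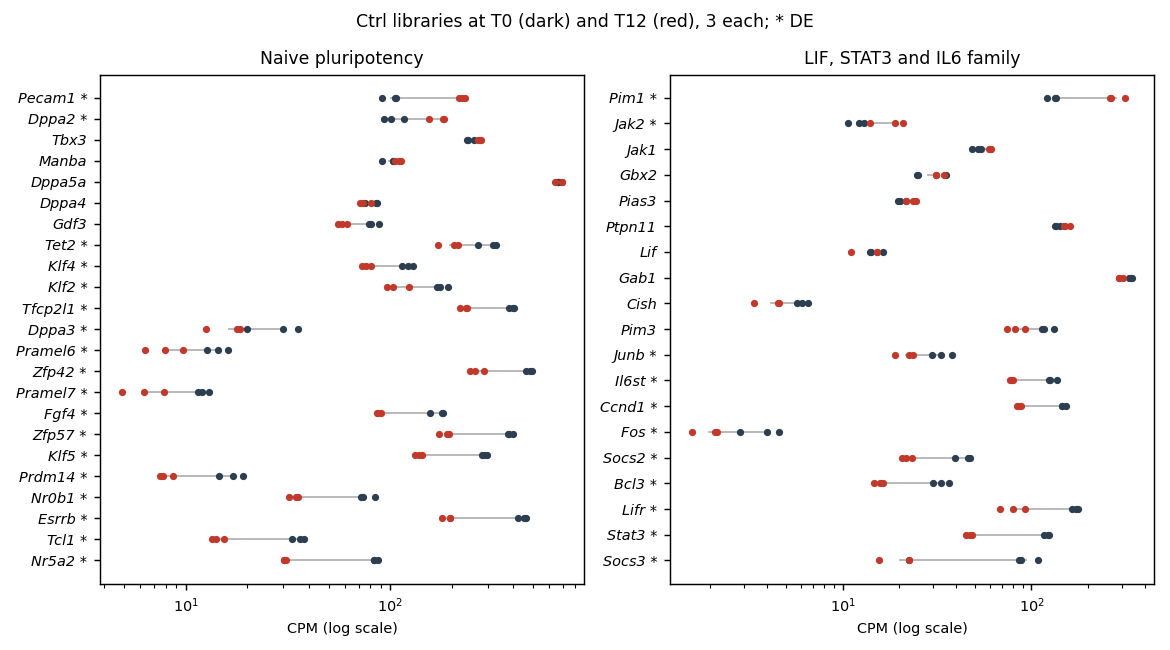
CPM on a log scale of each Ctrl library for the 23 naive pluripotency genes and the 19 tested genes of the LIF list, with T0 in dark and T12 in red points and an asterisk at DE genes. Red points lie below the dark ones for Esrrb, Nr5a2, Socs3 and Stat3 and above them for Pecam1 and Pim1.

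Genes of the formative state, which follows naive pluripotency in the embryo, went in both directions. Of 18 tested 3 rose (16.7%, background 7.24%) and 5 fell (27.8%, background 4.04%). Fgf5 and Otx2, its usual markers, fell from 3.44 to 0.968 CPM (log2 -1.85) and from 14.8 to 5.48 CPM (log2 -1.43), whereas Pou3f1 stood at 33.1 and 35.6 CPM (adjusted p = 0.421). Sox3, a neural SOX factor, rose from 3.76 to 21.5 CPM (log2 2.52) and Sall2 from 8.84 to 20.6 CPM (log2 1.22). The genes for the enzymes that set DNA methylation anew went in opposite directions. Dnmt3a had 169, 177 and 178 CPM at T0 and 378, 439 and 379 CPM at T12 (log2 fold change 1.19 ± 0.065, adjusted p = 7.37e-08), whereas Dnmt3b fell from 390.1 to 194 CPM (log2 -1.01) and their cofactor Dnmt3l from 297 to 136 CPM (log2 -1.13). Tet1, which oxidises methylcytosine, fell from 787 to 345 CPM (log2 -1.19). The maintenance genes Dnmt1 (418 and 409 CPM, adjusted p = 0.726) and Uhrf1 (483 and 504 CPM, adjusted p = 0.433) did not pass. In that list 1 of 15 rose (6.67%, background 7.24%) and 6 fell (40.0%, background 4.04%).

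In signalling pathways, ligands, receptors and feedback genes were among those called. In the FGF and ERK list 10 of 28 tested genes fell (35.7%, background 4.04%) and 4 rose (14.3%, background 7.24%), with a median log2 fold change of -0.32. Fallers included the ligands Fgf4 (from 172 to 87.7 CPM, log2 -0.97), Fgf17 (from 22.4 to 8.73 CPM, log2 -1.38) and Fgf10 (from 2.64 to 0.635 CPM, log2 -1.99), the feedback inhibitor Spry2 (from 126 to 67.3 CPM, log2 -0.89) and the ERK target genes Etv5 (from 485 to 274 CPM, log2 -0.82) and Egr1 (from 29.2 to 15.4 CPM, log2 -0.92). The receptors Fgfr4 (from 1.71 to 6.21 CPM, log2 1.86) and Fgfr3 (from 2.45 to 4.72 CPM, log2 0.95) rose. Scaling on genes alone left 2 of the 4 risers called.

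In the Wnt list 6 of 37 tested genes rose (16.2%, background 7.24%) and 10 fell (27.0%, background 4.04%). The ligands Wnt3a (from 1.19 to 4.87 CPM, log2 2.03) and Wnt8a (from 6.13 to 18.1 CPM, log2 1.57) rose while Wnt3 fell (log2 -0.73). Of the frizzled receptors, Fzd7 rose from 79.4 to 165 CPM (log2 1.06) and Fzd5 fell from 194 to 66.1 CPM (log2 -1.55). The Wnt target Sp5 (from 16.6 to 7.14 CPM, log2 -1.20) and the Wnt-inactivating enzyme gene Notum (from 33.4 to 14.7 CPM, log2 -1.18) fell, whereas the inhibitor genes Nkd1 (log2 1.12) and Sfrp5 (log2 0.70) rose, as did Cdx1, itself a Wnt target. The call of Nkd1 was lost without Ctrl T0 replicate 1 or 3, and that of Sfrp5 without Ctrl T0 replicate 2, Ctrl T0 replicate 3 or Ctrl T12 replicate 1. Axin2, the usual readout, was at 53.4 and 45.9 CPM (adjusted p = 0.0962).

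In the Nodal, BMP and TGF-beta list 9 of 35 tested genes rose (25.7%, background 7.24%) and 4 fell (11.4%, background 4.04%). The fallers numbered 2 when libraries were scaled on totals alone. Lefty1, a secreted Nodal inhibitor, had 25.6, 38.6 and 27.2 CPM at T0 and 146, 188 and 119 CPM at T12, all T12 libraries above all T0 libraries (log2 fold change 2.31 ± 0.17, adjusted p = 8.27e-07). Its neighbour Lefty2 (26.5 and 32.1 CPM, adjusted p = 0.188) and Nodal itself (54.7 and 50.3 CPM, adjusted p = 0.257) did not pass. Also higher were the SMAD corepressor Skil (from 127 to 290.5 CPM), the BMP inhibitor Smad6 (from 13 to 25.5 CPM), and the BMP targets Msx1 (log2 1.11), Msx2 (log2 1.22), Id1 (log2 0.67) and Id2 (log2 0.78), whereas the ligand Bmp4 fell from 19.9 to 11.2 CPM (log2 -0.82).

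Of 11 tested Hedgehog genes 4 rose (36.4%, background 7.24%) and 2 fell (18.2%, background 4.04%). Of the 4 risers 3 were coreceptors of the pathway: Gas1 (from 1.26 to 4.79 CPM, log2 1.95), Boc (from 4.61 to 10.6 CPM, log2 1.20) and Cdon (log2 0.72). The fourth was the receptor Ptch1 (from 80.8 to 135 CPM, log2 0.74). Gli2 (from 89.6 to 55.2 CPM, log2 -0.70) and Gli1 (log2 -0.61) fell, the call of Gli1 being lost without Ctrl T0 replicate 2, Ctrl T12 replicate 1 or Ctrl T12 replicate 3. In the Notch list 2 of 19 tested genes rose and 2 fell, 10.5% each way against 7.24% and 4.04% of all features. The ligand Dll1 went from 4.44 to 7.71 CPM (log2 0.79) and the ligand Jag1 from 35.6 to 16.6 CPM (log2 -1.09). Risers numbered 1 without Ctrl T0 replicate 1 or 3 or Ctrl T12 replicate 1 or 3, and fallers 1 without Ctrl T0 replicate 2 or Ctrl T12 replicate 3 or with scaling on totals alone.

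Marker lists of other cell types were examined as well. The summed level of 36 neural genes was 465 to 485 CPM at T0 and 379 to 440.0 CPM at T12. Of 24 tested, 9 were higher (37.5%, background 7.24%) and 5 lower (20.8%, background 4.04%). Risers included Msi1 (from 18.6 to 47.1 CPM, log2 1.34), Irx3 (from 1.58 to 4.08 CPM, log2 1.34), Hes3 (log2 1.81) and Pax7 (from 0.253 to 1.21 CPM, log2 2.22). Fallers included Tubb3 (from 97.9 to 49.9 CPM, log2 -0.98), Ncam1 (from 26 to 11.8 CPM, log2 -1.12) and Neurod1 (log2 -1.0), and the midbrain factor En1 (from 2.38 to 0.638 CPM, log2 -1.90). With 1 library left out the risers numbered 6 to 8. The call of Lhx1 was lost without each of the 6 libraries in turn, that of Sox1 without Ctrl T0 replicate 2 or 3 or Ctrl T12 replicate 1 or 2, and that of Pax6 without Ctrl T0 replicate 1 or 2 or Ctrl T12 replicate 2. Olig2 was at or near 0 and Dbx1 was at 0 in all 6 libraries. Streak and mesoderm genes summed to 147 to 176 CPM at T0 and 103 to 122 CPM at T12. Of 26 tested, 7 were lower (26.9%, background 4.04%), T (brachyury, from 36.5 to 14 CPM, log2 -1.36) and Evx1 (from 2.48 to 0.412 CPM, log2 -2.57) among them. The 4 higher ones (15.4%, background 7.24%) became 2 with DESeq2 or without Ctrl T0 replicate 3 or Ctrl T12 replicate 1. They numbered at most 3 with any library left out. Foxc1, a mesoderm factor, rose from 0.493 to 2.69 CPM (log2 2.41).

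Endoderm genes summed to 1744 to 2054 CPM at T0 and 1321 to 1547 CPM at T12. Of 24 tested, 4 rose (16.7%, background 7.24%), Foxa1 and Gata6 among them. In the other direction 2 fell (8.33%, background 4.04%), led by the laminin gene Lama1 (from 158 to 65.8 CPM, log2 -1.25). Without Ctrl T0 replicate 1, Ctrl T12 replicate 2 or Ctrl T12 replicate 3 there was 1 faller left. The endoderm markers Afp, Ttr and Cer1 stayed at or near 0. In the trophectoderm list, at 504 to 638 CPM at T0 and 488 to 551 CPM at T12, 5 of 15 rose (33.3%, background 7.24%) and none fell. The risers numbered 2 without Ctrl T0 replicate 2 and 3 without Ctrl T0 replicate 3. Germline genes summed to 284 to 300.3 CPM at T0 and 516 to 595 CPM at T12, most of the gain being Stra8, and their 5 risers of 19 tested fell to 1 without Ctrl T0 replicate 1, Ctrl T0 replicate 2 or Ctrl T12 replicate 3, to 2 without Ctrl T0 replicate 3 and to 3 without Ctrl T12 replicate 1. Rhox6 was the only germline faller (log2 -0.58), a call lost without Ctrl T0 replicate 3 or Ctrl T12 replicate 1, and 2 genes fell without Ctrl T12 replicate 2. Of 12 tested genes of the 2-cell-like state none passed, with 1041 to 1394 CPM at T0 and 628 to 1023 CPM at T12, and its repeat MERVL-int stood at 963 and 713 CPM (adjusted p = 0.0311).

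The blood and endothelial list summed to 126 to 143 CPM at T0 and 241 to 255 CPM at T12, of which Pecam1 made 101 and 224 CPM, and the leukocyte gene Ptprc and the globin gene Hbb-bs were at or near 0. Pecam1 was its only riser of 6 tested. Its only faller, Kdr (log2 -1.09), lost its call without Ctrl T0 replicate 1, 2 or 3 or Ctrl T12 replicate 1, and 2 genes fell without Ctrl T12 replicate 2. Fibroblast markers summed to 169 to 189 CPM at T0 and 136 to 175 CPM at T12, with Lum and Fap at or near 0. Pdgfrb rose from 5.06 to 23.2 CPM (log2 2.21), and Thy1 (log2 -1.41) and Acta2 (log2 -0.59) fell, the call of Acta2 being lost without Ctrl T0 replicate 3 or Ctrl T12 replicate 3. The part of other cell types in the results was not tested.

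**Figure D3:**
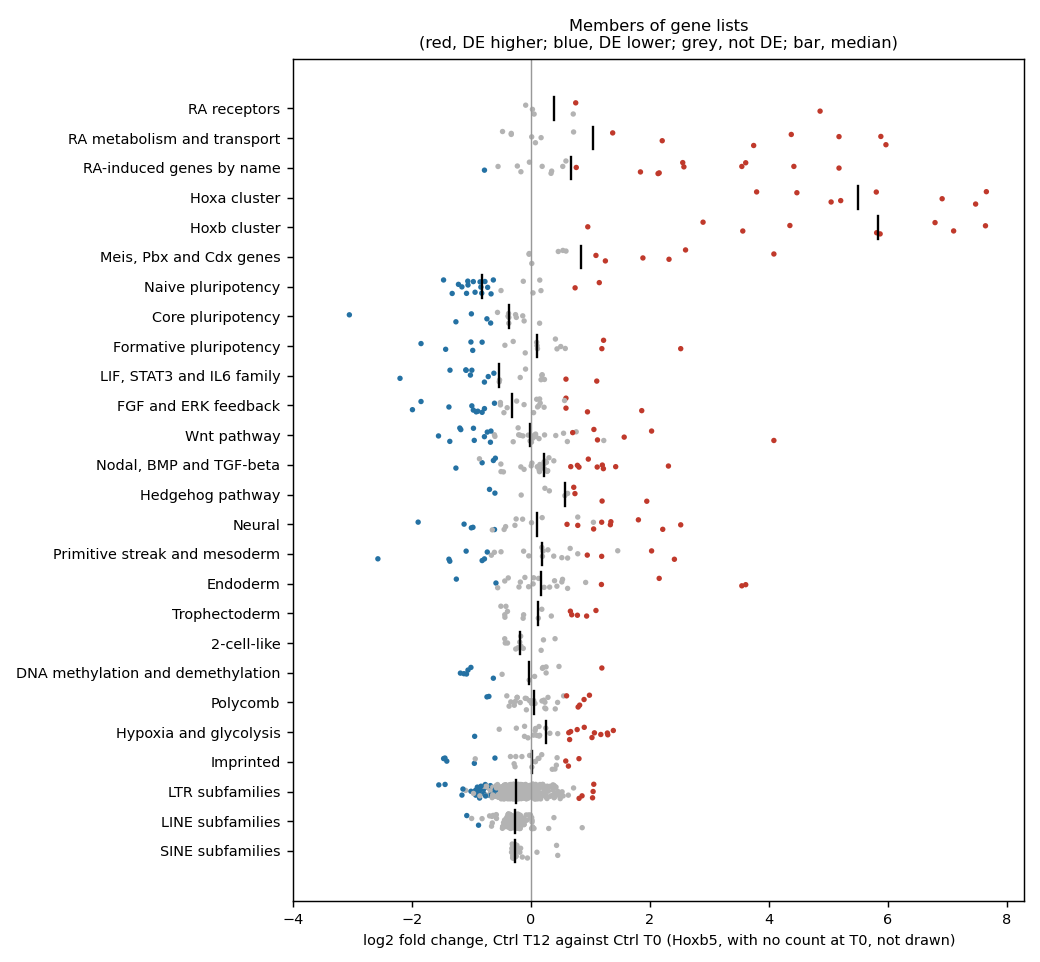
Log2 fold change (T12 against T0) of each tested member of 26 gene lists; red points are DE higher, blue DE lower, grey neither, and the bar is the median of the list. The Hoxa and Hoxb lists lie apart from the others, and Hoxb5 is not drawn because it had no count at T0.

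None of 84 ribosomal protein genes, 13 mitochondrially encoded genes or 34 SINE subfamilies passed, although 5 mitochondrial genes fell without Ctrl T12 replicate 3 and 1 without Ctrl T12 replicate 1, and of 372 Zfp genes 19 rose (5.11%) and 16 fell (4.3%). Among 67 histone cluster genes 4 rose (5.97%) and none fell. These shares lie near or below the 7.24% and 4.04% of all features. In the list of Myc family and cell cycle genes 3 of 29 rose (10.3%, background 7.24%). The cyclin gene Ccnd2 (from 22 to 44.4 CPM, log2 1.01) and the inhibitor gene Cdkn1c (from 13 to 22.9 CPM, log2 0.81) were among them. Mycn and the cyclin gene Ccnd1 (from 147 to 85.6 CPM, log2 -0.78) fell (6.9%, background 4.04%), with 4 fallers without Ctrl T12 replicate 1. Mcm2, a subunit of the replicative helicase, was at 497 and 514 CPM (adjusted p = 0.508).

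Polycomb proteins keep Hox clusters silent in ESCs. Of 32 Polycomb genes tested 2 fell (6.25%, background 4.04%), the PRC2 subunit Eed (from 187 to 112 CPM, log2 -0.74) and the PRC2 partner Epop (from 492 to 301 CPM, log2 -0.71). In the same list 5 rose (15.6%, background 7.24%), which became 2 without Ctrl T0 replicate 3 and 3 without Ctrl T12 replicate 1. Cbx8 (log2 0.89), Phc2 (log2 0.60) and Yaf2 (log2 0.82) were among them. Without Ctrl T0 replicate 3 all 3 of these lost their calls, as did Cbx8 and Phc2 without Ctrl T12 replicate 1 and Cbx8 without Ctrl T0 replicate 2. The largest of the 5 rises was that of Kdm6b, from 159 to 314 CPM (log2 0.98). It is listed with the Polycomb genes although it encodes a demethylase that removes the PRC2 mark H3K27me3. Among 24 genes of replacement histones and chaperones, H2afy2, a macroH2A gene, was the only riser (from 19.9 to 34.9 CPM, log2 0.81) and none fell, or 1 without Ctrl T0 replicate 3 or Ctrl T12 replicate 2. Of 25 imprinted genes 3 rose and 5 fell. Meg3 (from 272 to 102 CPM, log2 -1.42), Rian (from 432 to 158 CPM, log2 -1.45) and Mirg (from 75.3 to 27.1 CPM, log2 -1.47), noncoding RNAs of 1 imprinted cluster, fell by nearly the same factor.

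Hypoxia and glycolysis genes had 11 risers among 27 tested (background 7.24%). They included the mitophagy gene Bnip3 (from 16.2 to 42 CPM, log2 1.39), the oxygen-sensing hydroxylases Egln3 (log2 1.29) and Egln1 (log2 1.07), the collagen hydroxylase P4ha1 (log2 1.18), the lactate carrier Slc16a3 (log2 1.03), Vegfa (log2 0.90) and the glucose carrier Slc2a1 (log2 0.67). The list had 1 faller, Ndrg1 (log2 -0.95), whose call was lost without Ctrl T0 replicate 1 or 3, and 2 genes fell without Ctrl T12 replicate 2. Its summed level overlapped, at 8115 to 8531 CPM at T0 and 8105 to 9545 CPM at T12. Its median log2 fold change was 0.25 in Ctrl. In the other groups described below it was -0.02 in dPOLE4 (6 of 28 rose), 0.15 in Ctrl MCM2-2A (4 of 29) and -0.10 in dPOLE4 MCM2-2A (4 of 29). The difference from Ctrl passed for no member in dPOLE4 or Ctrl MCM2-2A. In dPOLE4 MCM2-2A it passed for 2, both with a lower change than Ctrl (0.444% of all features). In the stress response list 3 of 19 fell, led by the arginine carrier Slc7a3 (from 158 to 63.7 CPM, log2 -1.31), and 1 with libraries scaled on totals alone. Cholesterol synthesis genes leaned upward, with a median log2 fold change of 0.42 and non-overlapping groups in 21 of 22 (background 46.7%), but 2 passed, Insig1 (from 54.9 to 100.4 CPM, log2 0.87) and Dhcr7 (log2 0.62), and 4 on totals alone. Of 21 tested genes in the list of p53 targets and apoptosis 3 rose, Gadd45g (log2 1.22), Sesn1 (log2 0.83) and the survival gene Mcl1 (from 335 to 565 CPM, log2 0.76), and none fell, or 1 without Ctrl T0 replicate 3 and 2 without Ctrl T0 replicate 2, Ctrl T12 replicate 1 or Ctrl T12 replicate 2. In the adhesion list 5 of 26 fell (19.2%, background 4.04%), including the cadherin gene Cdh3 (log2 -1.0) and the epithelial splicing factor Esrp1 (log2 -0.89). Zeb1 rose (log2 0.66), the only riser (3.85%, background 7.24%), a call lost without Ctrl T12 replicate 3.

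The share of counts on repeats was lower in each T12 library than in each T0 library. Repeats held 8.41% ± 0.232 of counts at T0 and 7.82% ± 0.167 at T12 (SD, n = 3, exact permutation p = 0.1, two-sided, the smallest that 3 against 3 allows). LTR elements went from 2.30% ± 0.0806 to 1.74% ± 0.164 (exact permutation p = 0.1) and LINEs from 1.01% ± 0.0357 to 0.871% ± 0.084 (exact permutation p = 0.1), while SINEs stood at 3.15% ± 0.183 and 3.06% ± 0.216 (exact permutation p = 0.6). The design cannot take such a value below 0.1. Of 491 tested LTR subfamilies 28 fell and 5 rose (background 4.04% and 7.24%). ETnERV3-int, an endogenous retrovirus active in ESCs, fell from 214 to 72.9 CPM (log2 fold change -1.55 ± 0.13) and RLTR13B2 from 39 to 14.2 CPM (log2 -1.44), whereas MMVL30-int rose from 18.3 to 38 CPM (log2 1.06) and IAPEy-int from 4.98 to 10.2 CPM (log2 1.05). Over the tested subfamilies the median log2 fold changes were alike, -0.25 for LTR, -0.27 for LINE and -0.27 for SINE. Groups did not overlap in 225 of 491 LTR, 59 of 135 LINE and 27 of 34 SINE subfamilies (background 46.7%). Of 135 LINE subfamilies 2 fell and none rose. No LINE subfamily fell without Ctrl T0 replicate 2, Ctrl T0 replicate 3, Ctrl T12 replicate 1 or Ctrl T12 replicate 2, 4 fell without Ctrl T12 replicate 3, and 1 rose without Ctrl T0 replicate 3.

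The later Ctrl libraries, with 3 at T24 and 3 at T60, show how the 12 h response went on. Cyp26a1 averaged 185 CPM at T24 and 212 CPM at T60, and did not pass the test in either later step, while Cyp26b1 reached 239 CPM and Rarb 50.8 CPM at T60. Meis1 (233 CPM) and Gas1 (308 CPM) were far above their T12 levels by T60, as were the 5′ genes Hoxb8 (51.3 CPM) and Hoxb9 (59.2 CPM). Other risers were lower again by T60, all of them DE between T24 and T60: Lefty1 averaged 329 CPM at T24 and 7.27 CPM at T60, Pecam1 141 and 16.4 CPM, Cdx1 67.7 and 12.3 CPM, and Themis2 6.09 and 2.18 CPM. Among the fallers, Foxd3 (0.502 CPM at T60), Nanog (19.7 CPM) and Esrrb (15.3 CPM) fell further between T24 and T60, and so did Pou5f1, which had missed the threshold at 12 h and averaged 30.4 CPM at T60. Stat3 (147 CPM), Lifr (148 CPM), Lama1 (932 CPM) and Meg3 (732 CPM) rose between T24 and T60, to or above about their T0 level in Stat3, Lama1 and Meg3.

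Tested between T60 and T24, in libraries that the 12 h comparison did not use, 26.8% of the 1254 features that rose at 12 h and could be tested rose again and 28.5% fell. Of 638 that fell at 12 h, 39.5% fell again and 24.8% rose. Among 15194 features not called at 12 h the shares were 16.5% and 14.9%, and over all features tested 19.8% rose and 15.9% fell (35.7% in all). Between T12 and T24, 3.75% of features rose and 3.22% fell (6.97% in all).

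The same 12 h step was measured in 3 other groups of libraries: dPOLE4 (the same line with dTAG-13, which degrades POLE4, in place of DMSO), Ctrl MCM2-2A (a POLE4-dTAG clone with a mutation that disables histone binding by MCM2, given DMSO) and dPOLE4 MCM2-2A (that clone with dTAG-13), each with 3 libraries at T0 and 3 at T12. None of these libraries is a Ctrl library. In dPOLE4, 1305 features rose (7.18%) and 821 fell (4.52%, 11.7% together), and 942 risers were shared with Ctrl, 73.7% of the Ctrl list and 72.2% of the dPOLE4 list. Of the fallers 552 were shared (77.3% and 67.2%), and none was called in opposite directions. Ctrl MCM2-2A had 929 risers (5.2%) and 616 fallers (3.45%, 8.65% together), with 681 risers shared (53.2% of the Ctrl list and 73.3% of its own) and 411 fallers (57.6% and 66.7%). The dPOLE4 MCM2-2A group had 786 risers (4.3%) and 638 fallers (3.49%, 7.79% together), with 568 risers shared (44.4% and 72.3%) and 387 fallers (54.2% and 60.7%), and 2 features were called in opposite directions.

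The difference of the 12 h change from Ctrl was also tested directly. For dPOLE4 it passed for no feature of 18873 in edgeR and none in DESeq2, with 1811 at an unadjusted p below 0.05, and for 1 feature in edgeR without Ctrl T12 replicate 3. For Ctrl MCM2-2A it passed for 57 of 18808 features (0.303%), 9 with a higher change than Ctrl (0.0479%) and 48 with a lower one (0.255%), and for dPOLE4 MCM2-2A for 94 of 18912 (0.497%), 10 of them higher (0.0529%) and 84 lower (0.444%). With DESeq2 these counts were 118 and 202, and with the replicate block 34 and 147. Both of these tests use the same Ctrl libraries. The 57 became 14 without Ctrl T0 replicate 1, 24 without Ctrl T0 replicate 2, 36 without Ctrl T12 replicate 2, 29 without Ctrl T12 replicate 3 and 17 to 32 without Ctrl MCM2-2A T0 replicate 1, 2 or 3 or Ctrl MCM2-2A T12 replicate 1 or 2. The 94 became 58 without Ctrl T0 replicate 1, 59 without dPOLE4 MCM2-2A T12 replicate 1 and 61 without dPOLE4 MCM2-2A T12 replicate 3.

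The genes with the smallest adjusted p in these tests were chosen for their difference, so their levels are a description. Zbtb7c went from 2.48 to 23.7 CPM in Ctrl, from 11.6 to 28.8 CPM in Ctrl MCM2-2A and from 13.8 to 29.3 CPM in dPOLE4 MCM2-2A. Cd37, a tetraspanin gene of leukocytes, had 12.1, 12.7 and 14.8 CPM at T0 and 79.5, 90 and 84.1 CPM at T12 in Ctrl (log2 fold change 2.68 ± 0.084), and went from 33.4 to 91 CPM in Ctrl MCM2-2A and from 39.8 to 102 CPM in dPOLE4 MCM2-2A. In both genes the fold between lines was larger at T0 than at T12. The same held for Dhrs3, from 4.25 to 21.8 CPM in Ctrl MCM2-2A and from 1.60 to 33.8 CPM in Ctrl. Its level was higher in Ctrl MCM2-2A at T0 and higher in Ctrl at T12. For Pecam1 the fold between lines was larger at T12, from 85 to 107 CPM in Ctrl MCM2-2A against 101 to 224 CPM in Ctrl. The size and test of each difference stand with the results listed for a closer look.

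**Figure D4:**
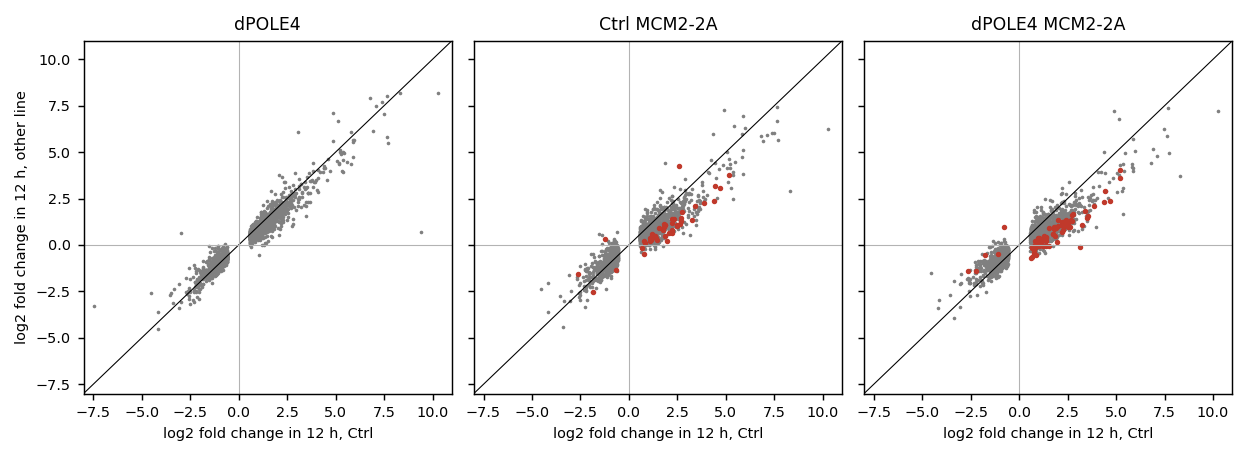
Log2 fold change at 12 h of every Ctrl-DE feature in Ctrl (x axis) and in dPOLE4, Ctrl MCM2-2A and dPOLE4 MCM2-2A (y axis), with the line of equal change; red points passed the test of the difference. The features were chosen for their change in Ctrl, which favours larger values on the x axis, and fitted values of genes with no count at T0 are no measure of size.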

How the data were processed

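The analysis used the table of raw counts per gene and per repeat subfamily that the authors deposited, with 56633 features in 48 libraries. By their methods, ribosomal RNA was depleted, libraries were strand-specific and paired-end, adapters were trimmed with cutadapt 4.2, reads were aligned to mm10 with STAR keeping multimapping reads, and TEcount assigned them to GENCODE genes and RepeatMasker subfamilies. The strand setting of the counting is not given in the sources used here. Multimapping reads make repeats, and genes that contain them, less certain than single-copy genes.

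Counts were tested with edgeR 4.0.16 (R 4.3.3), quasi-likelihood F test, filterByExpr (minimum count 10, total 15) and TMM factors over genes and repeats, in the 6 libraries compared. A feature was DE at a Benjamini-Hochberg adjusted p below 0.01 and an absolute log2 fold change above 0.58. The SE of a log2 fold change is its absolute value divided by the square root of the F statistic. For genes with few counts at T0 it can be smaller than the counting error. Differences between lines were interaction contrasts over 12 libraries. CPM used 1 set of TMM factors over the 48 libraries, so a fold of CPM can differ slightly from the fitted one. Shares of counts were compared with two-sided exact permutation tests. Lists, members and the rules for naming genes were chosen with earlier results of these data known, so lists are described by counts and medians beside those of all features, with no test of a list. Named genes are list members, the 20 protein-coding genes with the largest change each way (mean of at least 1 CPM, groups not overlapping), the 3 such repeats, the 5 smallest adjusted p, the 5 per between-line difference, and Pole4 and Mcm2. Gene positions and exon lengths are from GENCODE M21 and repeat classes from the names in the table. On simulated counts with 17111 features, 35 of 47 features changed 2-fold and 12 of 47 changed 1.5-fold were called, 48 of 48 changed 4-fold, and 1 unchanged feature. A 1.5-fold change lies at the fold cutoff of 0.58, so many such features miss it at any depth.

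Same-numbered libraries deviated together with r of 0.195, 0.071 and 0.0947 between T0 and T12, and differently numbered ones with at most 0.0395. The same-numbered r were also the highest between T12 and T24 (0.184, 0.317 and 0.229) and in dPOLE4 (0.174, 0.145 and 0.116). They were not between T24 and T60 (0.0699, -0.0852 and 0.0275, against up to 0.0974). Nor were they in Ctrl MCM2-2A (-0.0579, 0.135 and -0.295, against up to 0.362). In dPOLE4 MCM2-2A they were 0.117, 0.0487 and 0.414, against up to 0.181. The numbers thus gave no consistent pairing over the series, which limits what the replicate block means in the MCM2-2A groups. The counts printed come from fits without pairing unless a replicate block is named. With that block the calls were 2068 against 1993 for T12 against T0 in Ctrl. They were 1580 against 1302 for T24 against T12 and 2191 against 2126 in dPOLE4, moves of less than 1.5 times. The alternatives were DESeq2 1.42.0, other scalings and filters, a replicate block, other fold thresholds and leaving out each library. Some genes are not reported here.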

Additional observations from a re-analysis of the deposited data

Results flagged for a closer look

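The 12 h change differed between lines in a direct test for 57 features when Ctrl MCM2-2A was set against Ctrl, and for 94 when dPOLE4 MCM2-2A was, both tests using the same Ctrl libraries. The features below are the 5 with the smallest adjusted p of each, and each value is the difference of log2 fold changes, the other line minus Ctrl, with its edgeR quasi-likelihood adjusted p.

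For Ctrl MCM2-2A the difference was -1.90 for Zbtb7c (2.48 to 23.7 CPM in Ctrl, 11.6 to 28.8 CPM in Ctrl MCM2-2A), -1.995 for Dhrs3 (1.60 to 33.8 against 4.25 to 21.8 CPM), -1.52 for the transcription factor gene Pou2f2 (3.92 to 24.5 against 13 to 27.4 CPM), -1.21 for Cd37 (13.2 to 84.5 against 33.4 to 91.0 CPM) and -0.78 for Pecam1 (101 to 224 against 85.0 to 107 CPM), all at an adjusted p of 0.000438.

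For dPOLE4 MCM2-2A it was -2.14 for Zbtb7c (adjusted p = 3.74e-06), -1.30 for Cd37 (adjusted p = 8.9e-06), -1.16 for Plekha6 (7.83 to 26.6 CPM in Ctrl, 25.8 to 38.2 CPM in the other line, adjusted p = 9.78e-05), -1.32 for the collagen receptor gene Mrc2 (11.1 to 64.3 against 14.9 to 33.7 CPM, adjusted p = 9.78e-05) and -1.30 for the small GTPase gene Arl4d (12.8 to 19.7 against 22.5 to 13.7 CPM, adjusted p = 0.000129). Arl4d rose in Ctrl by 0.61 on the log2 scale, a call that was lost without Ctrl T0 replicate 1 or Ctrl T12 replicate 2.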

How the results depend on the processing

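The 1993 calls (1279 higher, 714 lower) were 1855 with DESeq2, 1988 with scaling on genes alone, 2044 on totals alone (1426 higher and 618 lower), 2475 without a filter and 2068 with a replicate block, 3550 with no fold cutoff, 770 when tested against a 1.5-fold change, and 1620 to 1975 without a library. The replicate block ended 2 calls of named genes, 1 of them Jak2, which took the risers of the LIF list from 2 to 1, and moved no other count printed here beyond 1.5 times but those given next. Of 239 named calls 184 held with DESeq2, the other scalings, the block and every library left out, and none changed sign there; the other alternatives were run on counts only. Differences between lines: dPOLE4 0 (0 to 1 without a library, 1 without Ctrl T12 replicate 3); Ctrl MCM2-2A 57, with DESeq2 118, replicate block 34, without a library 14 to 48; dPOLE4 MCM2-2A 94, with DESeq2 202, replicate block 147, without a library 58 to 117. Other comparisons without a library: T24 against T12 946 to 1221, T60 against T24 6032 to 6644, dPOLE4 1743 to 2236, Ctrl MCM2-2A 1140 to 1454, dPOLE4 MCM2-2A 1029 to 1595. Changes of shares without a library, in percentage points: repeats -0.677 to -0.461, LTR -0.624 to -0.472, LINE -0.179 to -0.0954, SINE -0.197 to 0.0188 (reversed without Ctrl T12 replicate 1), mitochondrial mRNA -0.367 to -0.0833, 100 most counted features -0.907 to 0.443 (reversed without Ctrl T0 replicate 3, 0.443, and Ctrl T12 replicate 1, 0.115). Small log2 changes turned sign for Dnmt1 (0.0235 on totals, -0.0733 to 0.00368 without a library), Pou3f1 (-0.00369 to 0.16 without a library) and Rxrb (-0.0584 to 0.072 without a library). The cause was not tested. Depth limits genes near 0 at T0, whose folds are bounds or wide intervals. Changes of about 1.5-fold lie at the fold cutoff itself, so many are missed at any depth.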
